A study of Homo sapiens with 6 samples.

Results

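Described here are 10 genes of the endoplasmic reticulum (ER) stress response: the sensors ERN1 (IRE1α), ERN2 (IRE1β), EIF2AK3 (PERK) and ATF6, the transcription factors XBP1, ATF4, DDIT3 (CHOP) and CREB3L1, the chaperone HSPA5 (BiP), and WFS1 (wolframin). They were chosen by gene symbol, all 10 had 1 line in each deposited table, and the tables held 24462 different symbols. The cells were LS 174T, an established line from a human colorectal adenocarcinoma that makes gel-forming mucins and serves as a goblet cell model. Control cells had no treatment (3 libraries), and the other cells were given propionate, a short-chain fatty acid made by gut bacteria, at 4 mM for 4 h (3 libraries). The title of the study asks how propionate acts on MUC2, the main secreted mucin of the gut, so the ER genes are the folding side of the same secretory pathway.

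The ER stress response senses unfolded protein in the ER lumen through several membrane proteins. IRE1 cuts XBP1 mRNA so that its ligated form encodes an active transcription factor. PERK phosphorylates the translation factor eIF2α, which favours translation of ATF4 and, through it, DDIT3. ATF6 and its relative CREB3L1 are cut in the Golgi by the proteases MBTPS1 and MBTPS2 and then act as transcription factors, with HSPA5 among the textbook targets of ATF6. ERN1 is found in most cells, whereas ERN2 is typical of mucus-making epithelium of gut and airway.

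Libraries held between 11603288 and 12746170 reads, so that 3 reads equalled 0.235 to 0.259 CPM (counts per 1000000 reads) by library total. All other CPM values given here were also scaled by edgeR's TMM factors. Nothing in the labels tells whether each library came from its own culture, so the p-values speak only to the spread among these libraries, part of which may be technical. All 11 colon epithelium markers were tested, with summed levels of 4929 to 5985 CPM in control and 5929 to 6640 CPM with propionate. Of these markers 6 passed the test (54.5%, against 34.2% of all tested genes). The keratins KRT18 and KRT19 and CEACAM5 rose, by 1.20-fold to 1.36-fold. The intestinal factors CDX2 and CDX1 and the cadherin CDH17 fell, by 1.18-fold to 1.31-fold. The calls of KRT18, CEACAM5 and CDX1 were each lost without 3 to 5 of the single libraries. Of 12 markers of blood, endothelial, stromal and liver cells, 3 had no read in any library (CD3E, VWF and DCN) and the whole set summed to 12 to 19 CPM in control and 16.8 to 17.1 CPM with propionate. COL1A1, a collagen gene of stromal cells, rose within these low sums. The part of these marker changes and of other cells in the results below was not tested.

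Propionate was followed by lower ERN2, XBP1 and ATF4 counts and by higher WFS1 counts, while HSPA5, ATF6, CREB3L1, DDIT3 and EIF2AK3 did not pass the test. Of the 9 members with enough reads to be tested, 4 passed (44.4%), 1 higher and 3 lower (adjusted p below 0.05 in the edgeR quasi-likelihood test, with Benjamini-Hochberg adjustment over 13605 genes). Over all tested genes 34.2% passed, 17.2% higher and 17.0% lower, so the share among the members was not far from the background. Without ERN2, whose reads raise the problem described next, 3 of 8 passed (37.5%). The libraries of the groups did not overlap for the same 4 members, against 45.2% of all tested genes. The median log2 fold change was 0.05 over the 9 members and -0.01 over all tested genes. All 4 calls held in each of the 18 alternative fits.

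**Figure D1:**
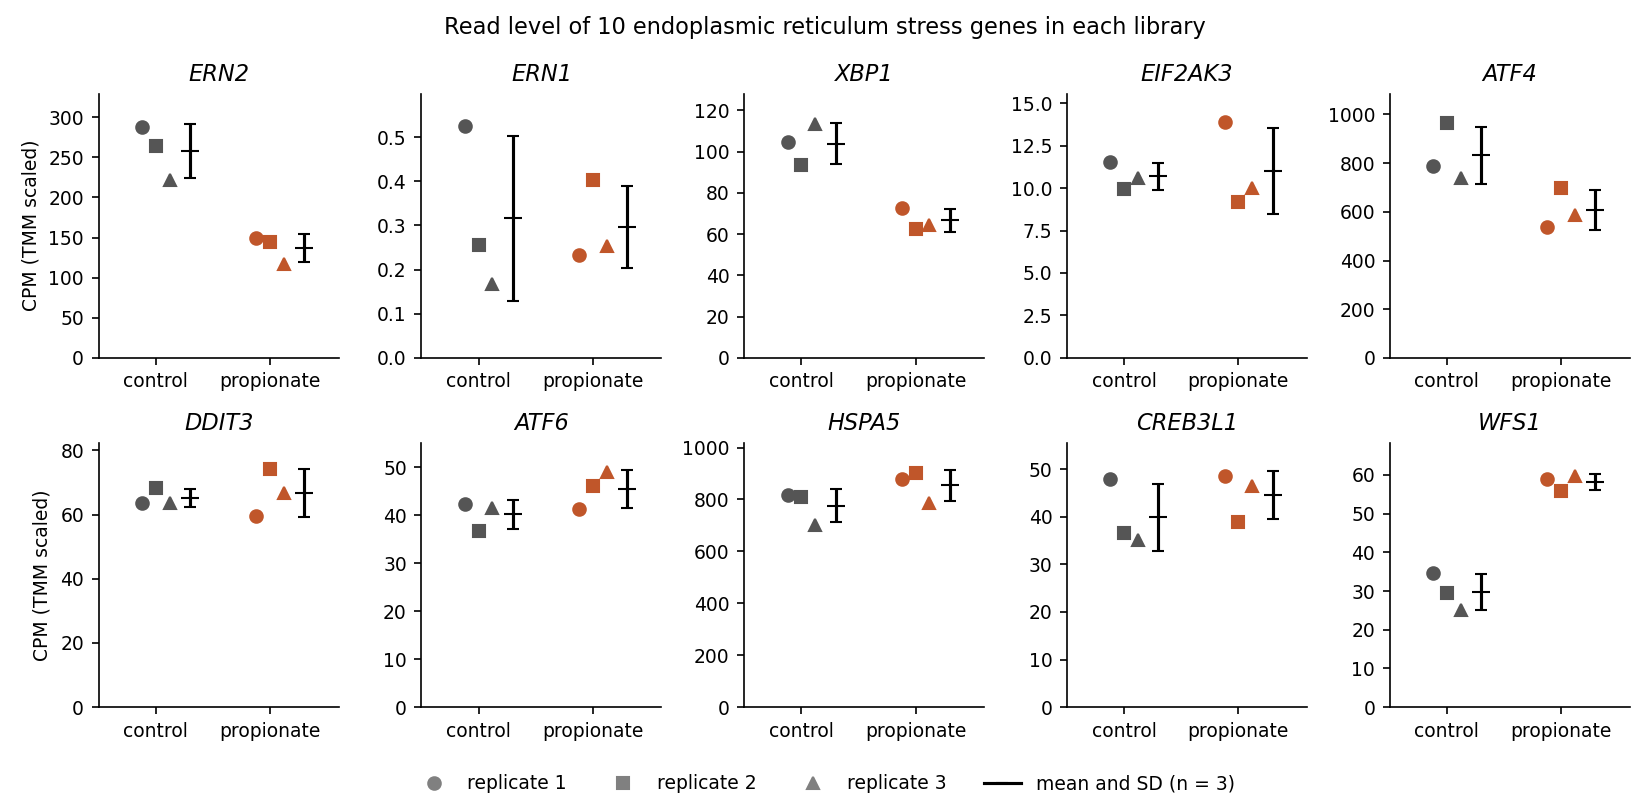
Read level (CPM, y axis from 0) of each of the 10 genes in the 3 control and 3 propionate libraries, with marker shape giving the replicate number and the black bar the mean and SD (n = 3). The groups are apart for ERN2, XBP1, ATF4 and WFS1 and overlap for the other genes, and ERN1 lies near the limit of 3 reads.

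ERN2 counts were lower in every propionate library than in any control library. The controls had 287.4, 263.9 and 221.8 CPM, and the propionate libraries had 148.9, 144.9 and 117.5 CPM. The mean went from 257.7 ± 33.2 to 137.1 ± 17.1 CPM (SD, n = 3), a 1.88-fold fall (log2 fold change -0.91, SE 0.104, edgeR adjusted p = 1.97e-06). As in any bulk measurement, fewer cells with the transcript and less transcript per cell cannot be told apart.

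The count given to ERN2 could not be separated from that of PLK1, the gene of a mitotic kinase. In GENCODE release 29 (build GRCh38), ERN2 spans chr16:23690326-23713500 on the minus strand, and its 3′ end meets that of PLK1 on the opposite strand, with 42 shared exonic bases. ERN2 had 3286, 3084 and 2661 reads in the controls and 1920, 1803 and 1389 with propionate. PLK1 had 3623, 3413 and 3068 reads in the controls and 2061, 1958 and 1517 with propionate. Both genes thus ranked the 6 libraries in the same order, with every propionate library below every control. ERN2 made up 47.6%, 47.5% and 46.4% of the sum of both genes in the controls and 48.2%, 47.9% and 47.8% with propionate. The exact Clopper-Pearson 95% intervals of these 6 shares reached from 45.2% to 49.8%; they cover counting error only, as no molecular identifiers are recorded.

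The ratio of ERN2 to PLK1 reads ranged from 0.867 to 0.932 over the 6 libraries, so that its highest value was 1.07 times its lowest. For 365 pairs of genes that likewise overlap tail to tail, with at least 10 CPM each, the median of this spread was 1.30, and 44 pairs had a smaller one. These pairs were not matched to ERN2 and PLK1 for read number, and with fewer reads counting error alone widens the spread. The comparison thus cannot tell whether the spread of ERN2 and PLK1 is unusual for their depth. PLK1 itself fell 1.94-fold (log2 fold change -0.96, edgeR adjusted p = 6.19e-07). The log2 ratio of ERN2 to PLK1 was 0.05 higher with propionate, with p = 0.1 in a two-sided exact permutation test, the smallest that 3 against 3 libraries allow. How the counting treated strand is not given in the sources used here. Which of the genes gave these reads, and whether ERN2 transcript changed, was not tested.

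PLK1 was also the gene whose profile over the 6 libraries was most like that of ERN2. Among 9285 other tested genes with a mean of at least 10 CPM, the root mean square difference of centred log2 CPM was 0.0325 for PLK1. The next values were 0.0606 for DDX12P, 0.0680 for ZCCHC10, 0.0732 for TMEM140 and 0.0774 for ZFP91. The gap between PLK1 and the next gene was thus wider than the steps among the others. PLK1 had 1517 to 3623 reads per library, whereas these 4 genes had between 84 and 450. Counting error alone raises the difference at fewer reads, so the gap is partly one of depth. DDX12P, ZCCHC10, TMEM140 and ZFP91 each fell, with log2 fold changes between -0.90 and -0.81. Their fall follows from choosing genes by likeness to ERN2 and is no separate result. DDX12P is a pseudogene with closely similar copies, so its count is uncertain.

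**Figure D2:**
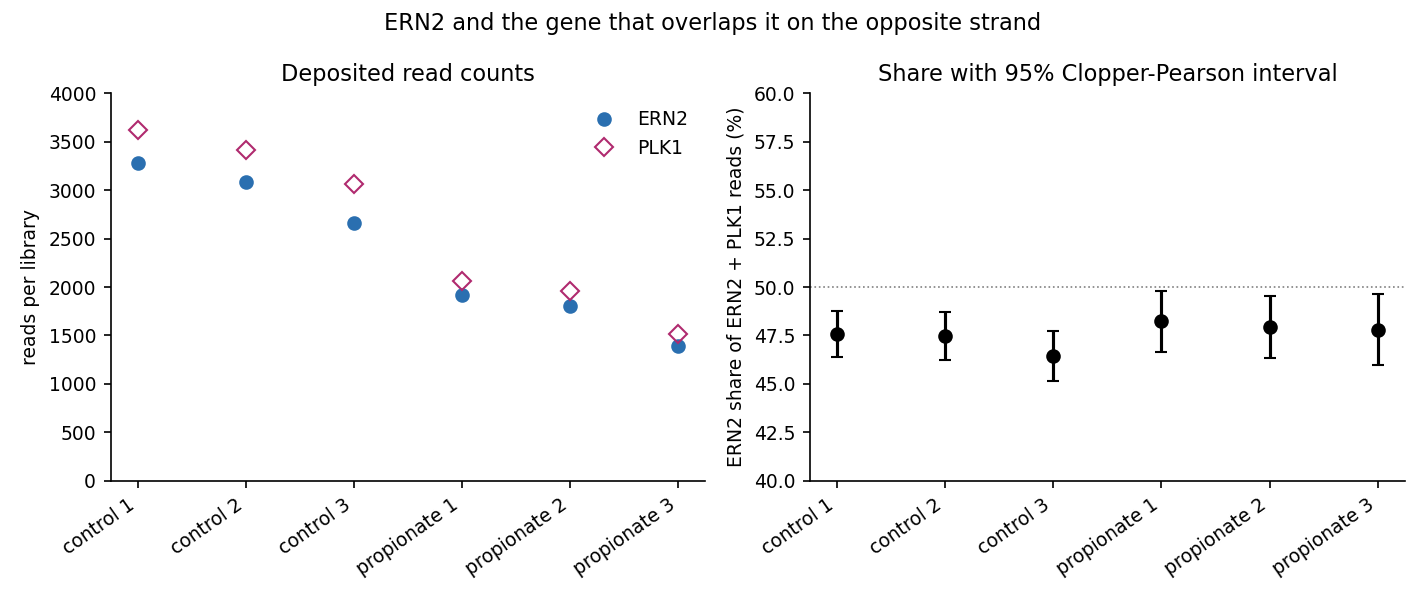
Left, deposited reads per library of ERN2 and of PLK1, which overlaps it on the opposite strand; right, the share of ERN2 in the sum of both (percent, axis cut to 40 to 60), with exact 95% intervals for counting error. Both genes fall together, and the share stays between 46.4% and 48.2% in the 6 libraries.

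ERN1, the widely expressed paralog, was too low to be tested. It had 6, 3 and 2 reads in the controls and 3, 5 and 3 reads with propionate. The sums were 11 and 11 reads, a propionate to control ratio of 0.956 per library total (exact 95% interval 0.376 to 2.43, for counting error only). Even a 2-fold change in either direction was thus not detectable at this depth. The log2 ratio of ERN2 to ERN1 reads, with 0.5 added to each count, was 9.61 ± 0.558 in control and 8.70 ± 0.375 with propionate (SD, n = 3). The difference of -0.91 gave p = 0.2 in the two-sided exact permutation test, so an unequal change of the paralogs was not shown. In GENCODE 29 ERN1 lies at chr17:64039142-64130819 (GRCh38, minus strand), and no exon of another gene overlaps it.

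XBP1, the factor that IRE1 activates, had the smallest adjusted p among the members that fell, apart from ERN2. The IRE1 substrate is a short segment of its coding sequence, which is shown here because the deposited counts cannot tell whether it was kept. In the GENCODE 29 transcript XBP1-201 it covers coding bases 494 to 519. The capitals mark these 26 bases, whose number is not a multiple of 3, so that their removal shifts the reading frame.

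XBP1 coding bases 476 to 537: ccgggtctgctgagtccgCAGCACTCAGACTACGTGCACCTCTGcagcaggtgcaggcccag

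The segment is flanked by the pattern CNGCAG, spaced 26 bases apart. The pattern occurs with that spacing in coding transcripts of 455 of 19684 protein-coding genes (2.31%), so it does not single out XBP1. Transcripts XBP1-203 and XBP1-204 keep the segment too, and XBP1-202 and XBP1-207 are annotated without it. The tables hold 1 count per symbol, so both forms enter the same count.

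XBP1 had 104.8, 93.4 and 113.4 CPM in the controls and 72.9, 62.6 and 64.5 CPM with propionate. Each propionate library was below each control, and the groups did not overlap. The mean went from 103.9 ± 10.1 to 66.7 ± 5.49 CPM (SD, n = 3), a 1.56-fold fall (log2 fold change -0.64, SE 0.0960, edgeR adjusted p = 4.26e-05). XBP1 lies at chr22:28794555-28800597 (GRCh38, minus strand), with no overlapping exon of another gene.

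Among 15 genes whose products bind, switch or follow IRE1, 4 rose and 1 fell, and 10 did not pass (median log2 fold change 0.02). This made 33.3% called, close to the 34.2% of all tested genes. BAK1, a pore-forming regulator of apoptosis that binds IRE1, rose from 25.8 ± 2.59 to 40.5 ± 0.617 CPM (log2 fold change 0.65, edgeR adjusted p = 0.000125). PTPN1, an ER-anchored tyrosine phosphatase, rose with a log2 fold change of 0.44, and BFAR, an ER-resident apoptosis regulator, with one of 0.52. BLOC1S1, whose mRNA is a known target of the RNA-degrading activity of IRE1, fell 1.18-fold (log2 fold change -0.24, edgeR adjusted p = 0.0426). That call was lost without any 1 of the 6 libraries, with edgeR adjusted p between 0.0719 and 0.119.

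Of the members in the PERK arm, ATF4 fell, and neither the sensor nor DDIT3 passed the test. EIF2AK3, the sensor, had 11.5, 9.93 and 10.6 CPM in the controls and 13.9, 9.16 and 9.99 CPM with propionate. The groups overlapped (log2 fold change 0.05, SE 0.179, edgeR adjusted p = 0.872). Without propionate library 1 its value was -0.16, and without control library 2 it was -0.00. The gene, at chr2:88556741-88627576 (GRCh38, minus strand), shares 781 exonic bases with the antisense gene AC104134.1 and 38 with AC062029.1, which have no symbol in the tables, so the origin of its reads is uncertain.

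ATF4, the factor translated when eIF2α is phosphorylated, had 789.6, 965.3 and 740.0 CPM in the controls. With propionate it had 535.9, 699.0 and 588.0 CPM. The highest propionate value stayed below the lowest control, and replicate 2 was the highest in both groups. The mean went from 831.6 ± 118 to 607.6 ± 83.3 CPM (SD, n = 3), a 1.37-fold fall (log2 fold change -0.45, SE 0.103, edgeR adjusted p = 0.00210). This is the level of the mRNA, whereas the known control of ATF4 in stress is at translation, which was not measured.

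DDIT3, a factor linked to stress-induced cell death, had 63.5, 68.4 and 63.8 CPM in the controls and 59.4, 74.2 and 66.6 CPM with propionate. The groups overlapped (log2 fold change 0.03, SE 0.0976, edgeR adjusted p = 0.828), and without propionate library 2 the value was -0.05. Its 3′ end shares 62 exonic bases with MARS, a methionyl-tRNA synthetase gene on the opposite strand, and the gene shares 105 with AC022506.1 on its own strand. The ratio of DDIT3 to MARS reads ran from 0.505 to 0.605 (highest 1.20 times the lowest), and its log2 value was 0.13 higher with propionate, with p = 0.1 in the exact permutation test, again the smallest possible. MARS did not pass the test (log2 fold change -0.10, edgeR adjusted p = 0.404). It passed as lower in both fits that removed a GC trend with the replicate number as a block (edgeR adjusted p 0.0177 and 0.0184).

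Of 22 other genes of the PERK and ATF4 arm, 5 rose, 7 fell and 10 did not pass (54.5% called against 34.2% of all tested genes, median log2 fold change -0.05). The textbook ATF4 targets did not move one way. STC2, a secreted glycoprotein gene, fell from 77.3 ± 5.97 to 42.1 ± 2.92 CPM, a 1.84-fold change (edgeR adjusted p = 1.59e-06). TRIB3, a pseudokinase induced by ATF4, fell 1.75-fold (edgeR adjusted p = 8.06e-06), and ATF5, a transcription factor translated in the manner of ATF4, fell 1.81-fold (edgeR adjusted p = 3.74e-05). In the other direction SESN2, a stress-induced inhibitor of mTORC1, rose from 40.7 ± 4.32 to 62.4 ± 0.288 CPM, a 1.53-fold change (edgeR adjusted p = 9.44e-05). CEBPB rose 1.41-fold and DDIT4, another mTORC1 inhibitor, 1.32-fold. The DDIT4 call was lost without control library 2 (edgeR adjusted p = 0.0504). With the transcript GC trend removed, neither passed: CEBPB had a log2 fold change of 0.19 (edgeR adjusted p = 0.291) and DDIT4 one of 0.24 (edgeR adjusted p = 0.123).

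Genes read as signs of an acute PERK response gave the following values. CHAC1, a glutathione-degrading enzyme downstream of ATF4, fell from 33.2 ± 4.04 to 26.2 ± 2.97 CPM (edgeR adjusted p = 0.0349). Without control library 2, propionate library 1 or propionate library 3 its edgeR adjusted p was between 0.102 and 0.174. ATF3 had 17.5 ± 1.58 CPM in control and 16.2 ± 2.43 with propionate (edgeR adjusted p = 0.613). PPP1R15A, the phosphatase subunit that reverses the PERK signal, had 27.9 ± 2.36 and 26.3 ± 3.37 CPM (edgeR adjusted p = 0.632). Neither ATF3 nor PPP1R15A passed the test, and without propionate library 2 both had a log2 fold change just above 0 (0.01 and 0.02). In both fits that removed a GC trend with the replicate block, PPP1R15A passed as lower. Its log2 fold changes there were -0.26 and -0.32 (edgeR adjusted p 0.0381 and 0.0118).

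**Figure D3:**
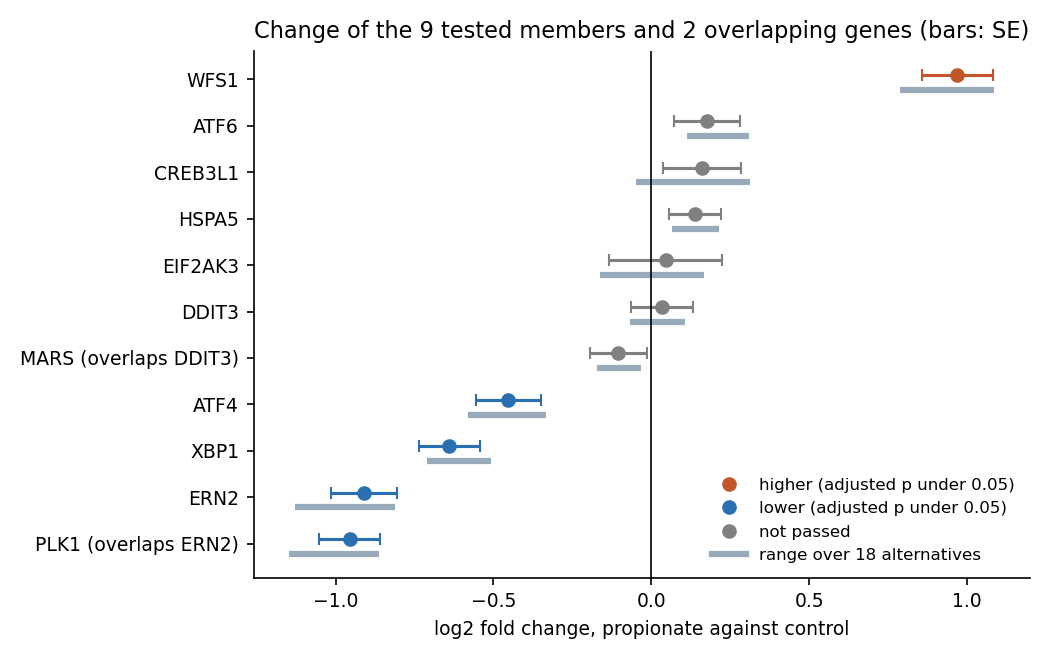
Log2 fold change (x axis, propionate against control) of the 9 tested members and of PLK1 and MARS, the genes that overlap ERN2 and DDIT3, with bars for the SE and pale lines for the range over the 18 alternative fits. WFS1 lies to the right of 0 and ATF4, XBP1, ERN2 and PLK1 to the left in each fit, while the lines of DDIT3, EIF2AK3 and CREB3L1 cross 0.

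In the ATF6 arm, no member passed the test. HSPA5, the chaperone that holds the sensors inactive, had 818.3, 808.6 and 701.7 CPM in the controls and 877.0, 900.5 and 784.5 CPM with propionate. The groups overlapped through control libraries 1 and 2, although HSPA5 was higher with propionate in 3 of 3 pairs of libraries with the same number. The log2 fold change was 0.14 (SE 0.0832, edgeR adjusted p = 0.216). With the replicate number as a block the edgeR adjusted p was 0.0116, so this call depends on taking the libraries as pairs.

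ATF6, the sensor, had 42.3, 36.7 and 41.6 CPM in the controls and 41.2, 46.1 and 49.1 CPM with propionate. The groups overlapped (log2 fold change 0.18, SE 0.105, edgeR adjusted p = 0.209). It passed in 3 of the 4 fits that removed a trend with GC content, chosen after seeing the data, with edgeR adjusted p between 0.00632 and 0.0254. CREB3L1 had 48.0, 36.7 and 35.1 CPM in the controls and 48.6, 38.9 and 46.5 CPM with propionate, and its groups overlapped as well (log2 fold change 0.16, SE 0.124, edgeR adjusted p = 0.339). Its estimate was -0.05 in both fits that removed the trend with GC content of the whole transcript.

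XBP1 and HSPA5 are shown with their promoters because they share the ER stress element, the classical motif bound by ATF6 together with NF-Y, yet differed in the test. The element was searched on both strands as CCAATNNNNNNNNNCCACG in the RefSeq promoter table (GRCh38.p14, 250 bases before to 50 after each start), which matched 9 of the 10 members. Capitals mark the element.

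XBP1 promoter, chr22:28800520-28800819, minus strand: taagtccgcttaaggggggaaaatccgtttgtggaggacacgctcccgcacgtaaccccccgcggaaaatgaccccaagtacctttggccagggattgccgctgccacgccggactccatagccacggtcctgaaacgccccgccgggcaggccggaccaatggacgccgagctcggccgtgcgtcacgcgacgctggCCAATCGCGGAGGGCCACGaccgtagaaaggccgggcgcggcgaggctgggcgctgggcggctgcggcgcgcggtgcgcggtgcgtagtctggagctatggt

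HSPA5 promoter, chr9:125241294-125241593, minus strand: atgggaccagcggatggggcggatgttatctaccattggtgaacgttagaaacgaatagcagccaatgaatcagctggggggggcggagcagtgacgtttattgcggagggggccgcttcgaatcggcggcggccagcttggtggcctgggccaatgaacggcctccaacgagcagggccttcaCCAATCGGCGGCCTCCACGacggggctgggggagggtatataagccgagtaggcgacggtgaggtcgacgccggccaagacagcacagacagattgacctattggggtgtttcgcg

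The element lay at bases -52 to -34 from the start in the XBP1 promoter shown and at -66 to -48 in HSPA5. Another RefSeq promoter of XBP1, chr22:28800028-28800327, did not hold it. The element occurred in 27 of 35114 promoters (0.08%). None of the 9 members' promoters held the related element ERSE-II (0.05% of all promoters), TGACGTGG (0.73%) or TGATGNAA (3.62%), the motifs searched for ATF6, XBP1 and ATF4. A match describes letters only and is neither a bound site nor a cause.

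Of the 25 genes with the element, 17 were tested, and 5 were higher, 4 lower and 8 did not pass (52.9% called against 34.2% of all tested genes, median log2 fold change 0.03). XBP1 was the lower gene with the smallest p. The ER chaperone CALR (log2 fold change 0.25) and the ER oxidase ERO1B (0.52) were among the higher ones. HSPA5 (0.14), HSP90B1 (0.03) and CANX (0.05) did not pass. SYNPO and GLRA2 were higher from few control reads and passed the filter on low counts only with the propionate libraries, so they lend no support to that count. SYNPO went from 9 to 169 reads, a ratio of 17.9 (exact 95% interval 9.23 to 39.9), and GLRA2 from 25 to 82 reads, a ratio of 3.13 (1.98 to 5.12). Both intervals cover counting error only. For ALG12 and CRELD2, and for EIF2A and SERP1, the windows of divergent neighbours shared 295 and 210 bases and thus the same element: ALG12 (-0.33) and EIF2A (-0.29) were lower, and CRELD2 (0.22) and SERP1 (0.02) did not pass. ALG12 kept its call in 10 and EIF2A in 11 of the 18 alternatives. The count of 9 called genes was between 4 and 5 without control library 1, control library 2, propionate library 1 or propionate library 2, and 5 in both fits that removed a GC trend without the block. CANX, SYNPO, GLRA2, ALG12, CRELD2, EIF2A and SERP1 are named for this motif and were chosen after their values were seen.

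**Figure D4:**
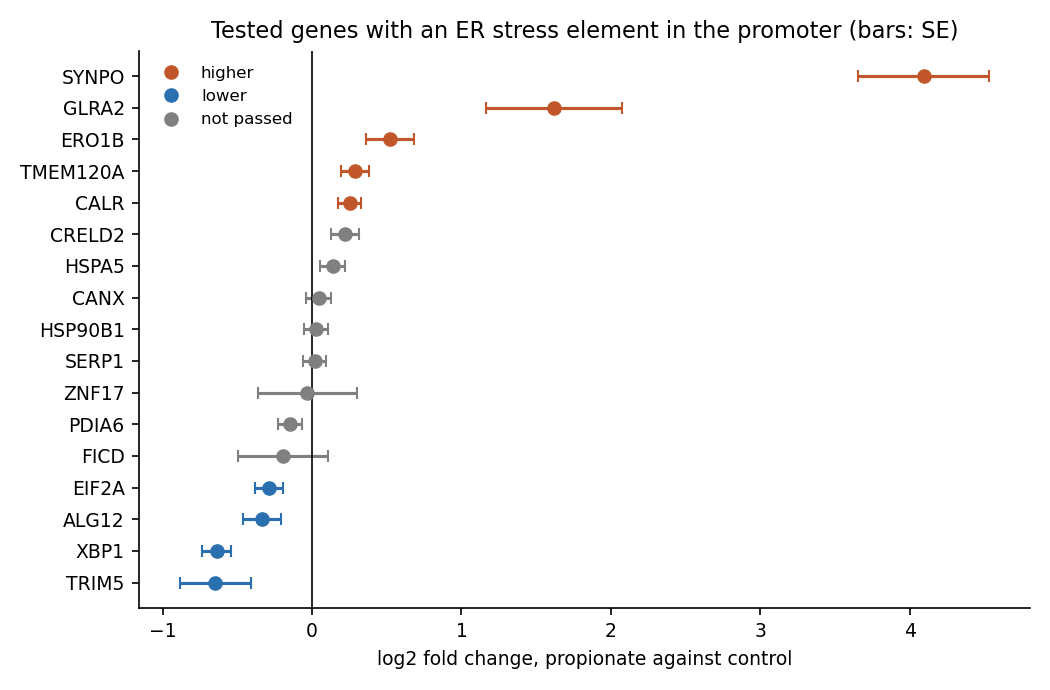
Log2 fold change (x axis, propionate against control, bars for the SE) of the 17 tested genes whose RefSeq promoter holds the ER stress element, coloured by the edgeR call. XBP1 (-0.64) lies near the lower end, HSPA5 (0.14) near the middle and SYNPO, with 9 reads in control, far above the rest.

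Among 12 relatives and partners of ATF6, 3 rose, 4 fell and 5 did not pass (median log2 fold change -0.10). The called share was 58.3%, against 34.2% of all tested genes. CREB3L3, a liver and gut member of the family, went from 2, 3 and 3 reads in the controls to 44, 68 and 43 reads with propionate. The sums of 8 and 155 reads gave a ratio of 18.5 (exact 95% interval 9.17 to 43.7, for counting error only). CREB3L3 passed the filter on low counts only through the propionate libraries, so it lends no support to the count of genes that rose. CREB3 rose from 72.5 ± 2.74 to 92.4 ± 2.05 CPM (edgeR adjusted p = 0.00327), but missed the threshold with the GC trend of the last 500 bases removed (log2 fold change 0.20, edgeR adjusted p = 0.0665). CREB3L2 rose 1.26-fold (edgeR adjusted p = 0.0423), a call lost without control library 1 or 2 or without any 1 of the propionate libraries (edgeR adjusted p between 0.0699 and 0.128).

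NF-Y, which binds the CCAAT letters of the element together with ATF6, was lower in the subunits NFYC and NFYB, whereas NFYA, its other subunit, did not pass (log2 fold change 0.21, edgeR adjusted p = 0.316). NFYC fell from 153.5 ± 6.07 to 92.1 ± 10.3 CPM, 1.67-fold (edgeR adjusted p = 5.20e-06), and NFYB 1.56-fold (edgeR adjusted p = 0.000344). CREBZF, which binds other factors of this class, fell 1.33-fold. CREB3L4, the androgen-responsive relative, fell 1.27-fold (edgeR adjusted p = 0.0208), a call lost without control library 3 or propionate library 3 (edgeR adjusted p 0.0526 and 0.0680). ATF6B and the proteases MBTPS1 and MBTPS2 did not pass, with log2 fold changes of 0.12, -0.03 and -0.27.

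How many genes of the folding machinery passed depended on whether the libraries were taken as pairs, as it did over all tested genes. Of 25 ER chaperones and folding enzymes, 4 rose, 1 fell and 20 did not pass (median log2 fold change 0.09). Thus 20% were called, against 34.2% of all tested genes. With the replicate number as a block 13 passed, 8 higher and 5 lower, while the calls over all tested genes went from 4659 to 6054. ERO1B, a disulfide-forming oxidase, rose from 12.9 ± 2.16 to 18.6 ± 2.82 CPM (edgeR adjusted p = 0.0161). CALR, the calcium-binding chaperone calreticulin, rose from 957.0 ± 73.1 to 1139 ± 53.5 CPM (edgeR adjusted p = 0.0183), and SDF2L1 from 109.5 ± 13.4 to 132.6 ± 12.5 CPM (edgeR adjusted p = 0.0357). DNAJC3, the ER co-chaperone that inhibits PERK, fell from 59.5 ± 2.52 to 48.0 ± 4.12 CPM (edgeR adjusted p = 0.0182).

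Each of the calls of ERO1B, CALR, SDF2L1 and DNAJC3 was lost without some single library. Without control library 1 or propionate library 3, ERO1B missed the threshold (edgeR adjusted p 0.0797 and 0.0758). Without control library 3, propionate library 1 or propionate library 2, CALR, SDF2L1 and DNAJC3 each missed it (edgeR adjusted p between 0.0555 and 0.191). The count of called chaperones and folding enzymes was then 2. CALR also missed it without control library 2 (edgeR adjusted p = 0.0672). With the transcript GC trend removed CALR, SDF2L1 and DNAJC3 missed it as well (edgeR adjusted p 0.0731, 0.944 and 0.181). HSP90B1, the ER form of HSP90, had 735.9 ± 53.0 CPM in control and 750.0 ± 48.3 with propionate, and DNAJB9, a target of spliced XBP1, had 7.38 ± 2.23 and 5.84 ± 1.09 CPM. Neither passed, and without control library 2 or propionate library 3 HSP90B1 had a log2 fold change of -0.01 or -0.03. In both fits that removed a GC trend with the replicate block, HSP90B1 passed as higher. Its log2 fold changes there were 0.16 and 0.12 (edgeR adjusted p 0.00525 and 0.0371).

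In ER-associated degradation, which pulls misfolded protein out of the ER, 6 of 23 genes fell, 1 rose and 16 did not pass. Of this list 30.4% were called, against 34.2% of all tested genes, with a median log2 fold change of -0.02. UBXN4, an adaptor of the segregase VCP, fell 1.37-fold (edgeR adjusted p = 0.000131), UBE2J1, a ubiquitin-conjugating enzyme, 1.39-fold (edgeR adjusted p = 0.00134), and HERPUD1, a stress-induced scaffold, 1.37-fold, from 43.9 ± 5.67 to 32.1 ± 1.27 CPM (edgeR adjusted p = 0.00376). EDEM3, a mannosidase, rose 1.46-fold (edgeR adjusted p = 0.00322). SEL1L, the partner of the ligase SYVN1, did not pass (log2 fold change -0.17).

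Of 24 genes of the translocon, signal recognition particle and signal peptidase, 1 rose and 1 fell (median log2 fold change -0.10). Only 8.33% were called, against 34.2% of all tested genes. SRPRB, a subunit of the receptor for the signal recognition particle, fell 1.32-fold (edgeR adjusted p = 0.000831). SSR1, a translocon-associated protein gene, rose 1.17-fold (edgeR adjusted p = 0.0271), a call lost without any 1 of the controls, propionate library 1 or propionate library 2 (edgeR adjusted p between 0.0519 and 0.0888). The count was 1 without control library 3, propionate library 1 or propionate library 2, and 10 with the replicate block, of which 8 were lower. With the same block, calls over all tested genes went from 4659 to 6054, so the rise in count is not particular to this list.

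**Figure D5:**
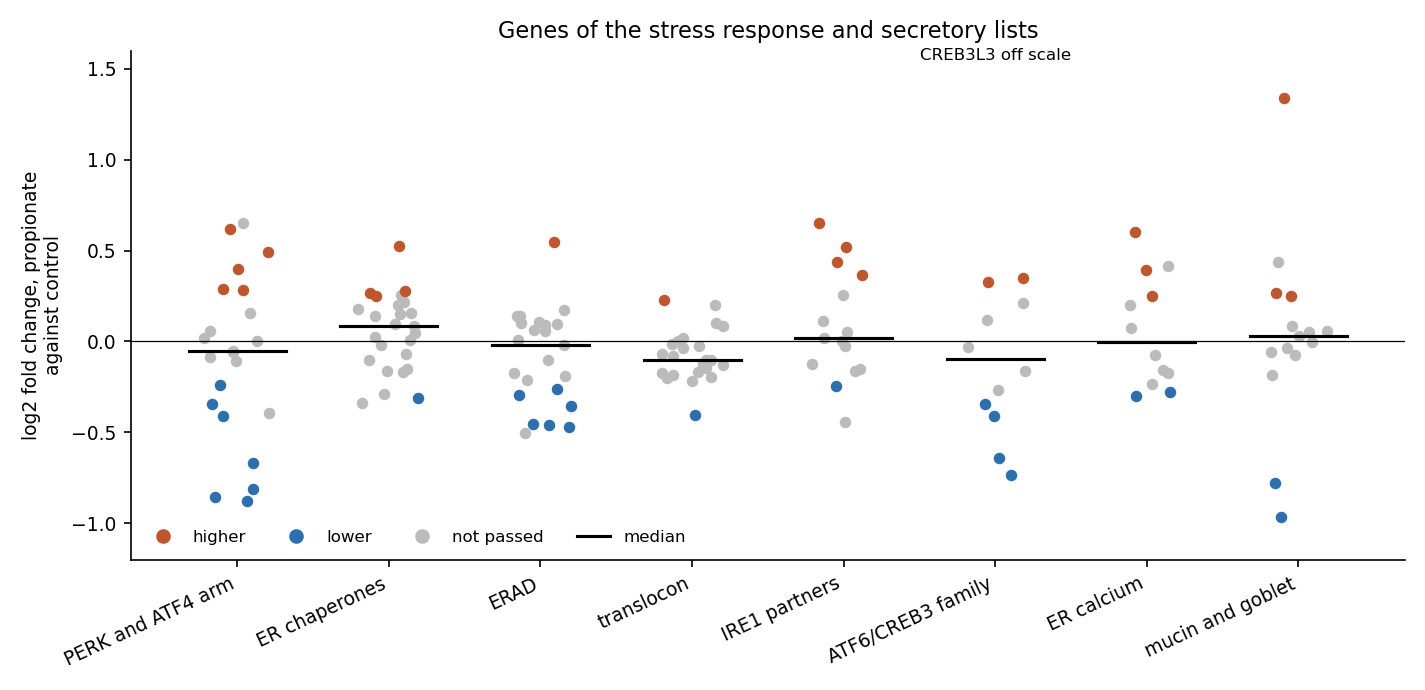
Log2 fold change (y axis, propionate against control) of every tested gene in 8 lists of the ER stress response and the secretory pathway, coloured by the edgeR call, with a black line at the list's median. The medians lie between -0.10 and 0.09, and CREB3L3, with 8 reads in control, is above the axis.

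WFS1, an ER membrane glycoprotein tied to calcium handling and known as a stress-response gene, was the member that rose. It had 34.5, 29.6 and 25.1 CPM in the controls and 59.0, 55.8 and 59.8 CPM with propionate. All propionate libraries were above all controls and lay closer to one another. The mean went from 29.7 ± 4.73 to 58.2 ± 2.14 CPM (SD, n = 3), a 1.96-fold rise (log2 fold change 0.97, SE 0.113, edgeR adjusted p = 2.70e-06). WFS1 spans chr4:6269849-6303265 (GRCh38, plus strand), no exon of another gene overlaps it, and its RefSeq promoter held none of the 4 motifs searched.

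Of 13 genes of ER calcium handling, 12 were tested, and 3 rose, 2 fell and 7 did not pass (median log2 fold change -0.00). Their called share of 41.7% compares with 34.2% of all tested genes. CAMLG, a calcium-modulating ER protein gene, rose 1.52-fold (edgeR adjusted p = 0.000668), and STIM1, the ER calcium sensor, 1.31-fold (edgeR adjusted p = 0.00942), whereas its paralog STIM2 fell 1.23-fold (edgeR adjusted p = 0.0159). The STIM1 call was lost without propionate library 1 (edgeR adjusted p = 0.0624) and that of STIM2 without control library 3 (0.0542). CISD2, the gene mutated in the second form of Wolfram syndrome, fell 1.21-fold (edgeR adjusted p = 0.0327), lost without control library 1 or 3 or propionate library 1 or 3 (edgeR adjusted p between 0.0652 and 0.168). It was also lost with upper-quartile factors and in all 4 fits that removed a GC trend, where its log2 fold change was as small as -0.11 (edgeR adjusted p up to 0.418). With the transcript GC trend removed, STIM1 and STIM2 missed the threshold as well (edgeR adjusted p 0.0522 and 0.0974). The count was 2 without control library 3 or propionate library 1, and 8 with the replicate block. That block raised the calls over all tested genes as well, from 4659 to 6054.

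ERN2 is typical of cells that make mucin, and the mucin and goblet genes gave the following picture. Of 16 such genes, 15 were tested, and 3 rose, 2 fell and 10 did not pass (median log2 fold change 0.03). Called were 33.3%, close to the 34.2% of all tested genes. In both fits that removed a GC trend without the block, 1 rose and 4 fell, so the balance of directions depends on that choice. MUC2 had 204.4, 222.2 and 181.4 CPM in the controls and 248.2, 256.0 and 218.2 CPM with propionate. The lowest propionate value was below the highest control, and MUC2 rose by the test (log2 fold change 0.25, SE 0.0905, edgeR adjusted p = 0.0396). This call was lost without control library 1, control library 3, propionate library 1 or propionate library 2 (edgeR adjusted p between 0.0817 and 0.184), and the value was between 0.01 and 0.03 in the fits that removed a GC trend.

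AGR2, a disulfide isomerase that helps fold MUC2, had 393.0 ± 51.1 CPM in control and 345.6 ± 49.7 with propionate (log2 fold change -0.19, edgeR adjusted p = 0.188). With the replicate number as a block its edgeR adjusted p was 0.00241. KLF4, a factor of goblet cell differentiation, rose 2.53-fold, from 4.22 ± 0.0620 to 10.7 ± 0.916 CPM (edgeR adjusted p = 2.43e-05). MUC6, a gastric-type mucin, rose 1.20-fold (edgeR adjusted p = 0.0356), a call lost without control library 3, propionate library 1 or propionate library 2 (edgeR adjusted p between 0.0890 and 0.194) and in all 4 fits that removed a GC trend. ST6GALNAC1, the sialyltransferase of mucin glycans, fell 1.72-fold (edgeR adjusted p = 9.09e-05), and RETNLB, a goblet cell peptide, 1.95-fold (edgeR adjusted p = 0.00135). The count of called genes was 3 without control library 3, propionate library 1 or propionate library 2.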

How the data were processed

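Total RNA (500 ng per library) went into a Lexogen QuantSeq preparation, per the labels' protocols, and the authors deposited 1 table of raw read counts per gene symbol for each library. Bowtie2, edgeR, hg19 and GRCh37 are named, with no version or role, in the submitters' processing notes. What counted the reads, with which strand setting and which annotation, is not stated in them or in the labels. QuantSeq kits read near the 3′ end, but the catalogue number in the labels may belong to another kit, and count tables do not show where reads lie. The tables carry no coordinates. Those printed here come from GENCODE release 29 and from RefSeq (GRCh38.p14), matched by symbol.

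Counts of repeated symbols were summed. edgeR 4.0.16 (R 4.3.3) used the quasi-likelihood F test without covariates and with TMM factors on 13605 genes that passed filterByExpr, with Benjamini-Hochberg adjustment over all of them and a threshold of 0.05; the procedure was tested on simulated data. Fold changes come from the fit with a prior count of 0.125. Ratios of 2 genes within a library used an exact permutation test over the 6 libraries. Depth per library was 11603288 to 12746170 reads, and libraries of 1 group differed by more than counting noise (chi-square per degree of freedom 6.01 to 8.85).

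Deviations from the group means correlated at 0.24, 0.396 and 0.442 for libraries with the same number and between -0.354 and 0.00985 for the others. All 3 exceeded the limit of 0.1, which sets same-number libraries as pairs for the blocked fit; the labels name no common day or batch, so the pairing comes from the data. The calls given as main results come from the fit without the block, and the permutation tests regroup all 6 libraries. Blocked values are printed for some, not all, of the calls they change. The alternatives were 14 planned ones (other scalings, DESeq2 1.42.0, limma-voom with limma 3.58.1, 2 other filters, a replicate block, and leaving out each library) and 4 added after seeing the data, which removed each library's trend with GC content.

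Named genes are the members, up to 3 called genes per list and direction with the smallest p, 16 genes of the response set in the rule (HSP90B1, DNAJB9, HERPUD1, SEL1L, ATF6B, CREB3L2, CREB3L3, CREB3L4, MBTPS1, MBTPS2, PPP1R15A, TRIB3, ATF3, CHAC1, AGR2 and MUC2), genes that overlap a member on the opposite strand, and the 5 genes most like ERN2. The members and lists were chosen with earlier results of these data known.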

Additional observations from a re-analysis of the deposited data

How the results depend on the processing

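Over the 14 planned and 4 added alternatives, ERN2 (log2 fold change -1.13 to -0.81), XBP1 (-0.71 to -0.51), ATF4 (-0.58 to -0.33) and WFS1 (0.79 to 1.09) kept direction and call. The number of members called was 4 to 6, and that of all genes 3852 to 6054. Of the context lists together, 47 genes were called, 35 to 67 in most alternatives and 71 with the replicate block. In the main fit the called share per list ran from 8.33% to 58.3%, against 34.2% of all tested genes. The block raised the calls over all tested genes too, from 4659 to 6054. The difference in the ERN2 to ERN1 ratio was -1.22 to -0.69 and did not pass, nor could it in a design whose smallest p is 0.1. Leaving out 1 library at a time, the estimates that crossed 0 ranged from -0.16 to 0.17 for EIF2AK3, from -0.047 to 0.11 for DDIT3, from -0.026 to 0.084 for HSP90B1, from -0.21 to 0.0073 for ATF3 and from -0.16 to 0.018 for PPP1R15A. Removing the GC trend of the transcript, without and with the replicate block, turned CREB3L1 to -0.048 and -0.046, ATF6B to -0.030 and -0.031 and SDF2L1 to -0.010 and -0.0097. Removing that of the last 500 bases, likewise, turned DDIT3 to -0.064 and -0.066, MBTPS1 to 0.036 and 0.036, and MUC6 to -0.0048 and -0.0037. The cause was not tested. Another scaling moved the median of all genes by at most 0.025. At this depth ERN1 cannot be judged.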
